A study of Danio rerio with 12 samples.

Results

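Voltage-gated ion channels and the Na/K pump set the electrical activity of the heart, and their genes were followed here across genotype and injury in ventricular apices of adult zebrafish. Members were all symbols of the count lists that begin with kcn and a letter, scn and a digit, cacn, hcn and a digit, atp1a or atp1b, and that reached 10 or more counts in at least 2 of the 12 libraries. Of 38049 symbols, 171 carried such a name and 79 met the count rule. These comprised 38 genes of potassium channels and their subunits, 10 of sodium channels, 16 of calcium channels, 2 of the pacemaker (HCN) channels, and 13 of the Na/K pump. The other 92 symbols had fewer counts, and 14 of these had 0 counts in every library. Just inside the rule, *kcnh4* and *kcnj15* reached 10 counts and *kcna2b* 12 in their second highest library, whereas *cacng7b* and *kcnd1* reached 9 and *scn1bb*, *kcnk3b*, *kcnn1b*, *kcnj11l*, *cacna2d4a* and *cacna2d4b* reached 8 and were left out. The filter on low counts passed 77 members, and *kcnh4* and *kcnj15* were not tested.

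RNA-seq compared non-transgenic wild-type fish (WT), wild-type fish with *Tg(hsp70l:nkx2.5-EGFP)* (TG), and *nkx2.5*-/- fish with the same transgene (MT). The transgene places Nkx2.5 fused to EGFP under a heat shock promoter, and a heat shock at 21 somites carries the mutants past their embryonic heart defects. Fish of all 3 genotypes received that heat shock, so the mutant differs from WT in both the allele and the transgene, and from TG in the allele. Apices were taken uninjured (WT0, TG0, MT0) or 7 days post amputation (dpa) of the apex (WT7, TG7, MT7) from adults of 3 to 18 months. Each group had 2 libraries, each from a pool of 6 apices, so the spread between single fish is not seen.

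The Na/K pump exports sodium and imports potassium at the cost of ATP. Its alpha subunit is catalytic, and its beta subunit is needed to bring the pump to the membrane. In a heartbeat, sodium channels carry the upstroke of the action potential, calcium channels sustain it and trigger contraction, and potassium channels bring the membrane back to rest. HCN channels carry the current that drives pacemaker cells towards threshold. Pore-forming (alpha) subunits work with auxiliary subunits that tune gating and trafficking.

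Total counts were 14234818 to 24544150 per library, and the members took 0.39% to 0.748% of them. Levels are in CPM, counts scaled to library size with TMM factors and not to transcript length, so that they are compared between libraries, and counts of different genes are set together only as shares of counts named as such. *nkx2.5* itself measured 266.9 to 271.5 CPM in the WT0 and TG0 libraries and 345 and 450 CPM in MT0. Those counts do not check the genotype labels, since mutant allele and transgene reads may both fall under that symbol. The cardiomyocyte markers (8 of 8 detected) summed to 83610 to 99480 CPM in WT0 and TG0, to 51970 and 74100 in MT0, to 59630 to 70600 in WT7 and TG7, and to 29860 and 42450 in MT7. Fibroblast and epicardial markers (5 of 6 listed) summed to 184 to 384 CPM in WT0 and TG0, to 638 and 880 in MT0, and to 2380 to 3193 after injury in all genotypes. The libraries thus carry the heart muscle markers that the label names, at lower sums in the mutant and after injury. Not every listed marker followed the sum. *vmhc* measured 279 and 397 CPM in WT0, 734 and 544 in MT0, 1228 and 1428 in WT7, and 796 and 556 in MT7. Values given below per 1000 CPM of these markers thus also depend on changes of the markers themselves. Such changes were not separated from cell number.

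One library stood apart. After 0.5 CPM was added, 16 of 69 members with a mean log2 CPM above 0 differed by more than 2-fold between the 2 WT0 libraries. Of these, 14 were higher in WT0 replicate 1. The number that differed was 3 in TG0, 7 in MT0, 0 in WT7, 3 in TG7 and 4 in MT7. Over all 17043 genes above that level, 10.9% differed by more than 2-fold in WT0 and 1.21% to 4.78% in the other groups. The direction of these differences over all genes was not counted. For the comparisons with WT0 named below, the value without replicate 1 is given where the call was lost or the value moved by more than 1.5-fold.

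**Figure D1:**
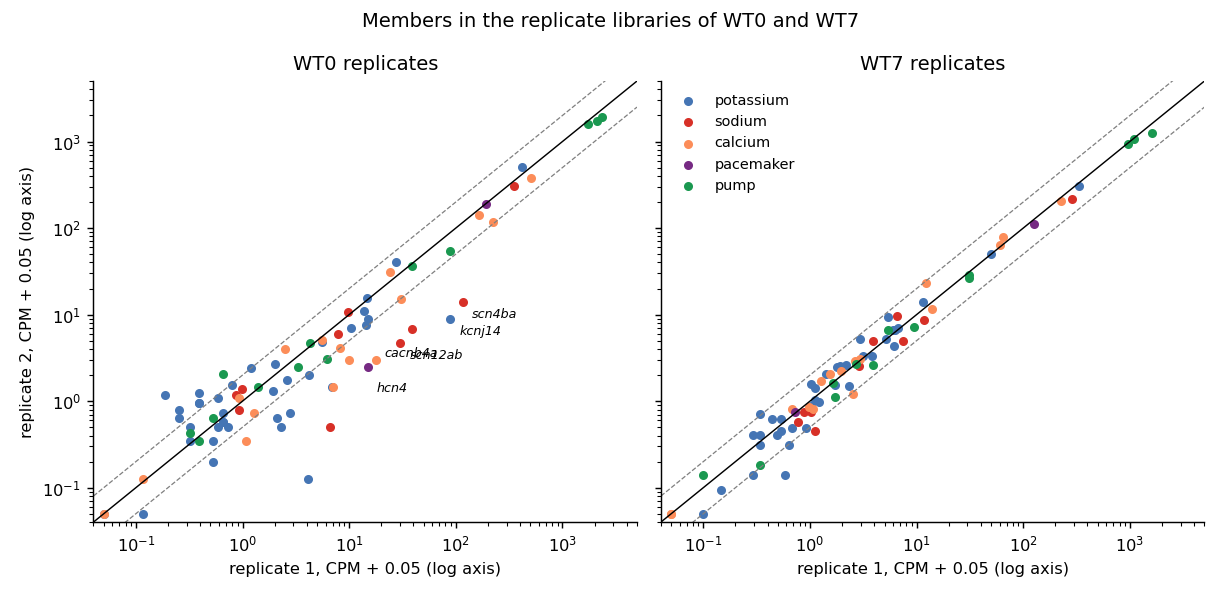
CPM of the 79 members in replicate 1 (x axis) and replicate 2 (y axis) of WT0 and of WT7, on log axes after adding 0.05 CPM, with the line of equality and dashed lines at a 2-fold difference. In WT0, scn4ba, kcnj14, scn12ab, hcn4 and cacnb4a are among the members beyond the dashed line on the side of replicate 1. The counts in the text add 0.5 CPM and take members with a mean log2 CPM above 0, so they differ from counts of plotted points.

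Differentially expressed genes (DEGs) were genes with an FDR (Benjamini-Hochberg over 19014 genes, quasi-likelihood test of edgeR) below 0.05 and an absolute log2 fold change (log2FC) above 0.5. In MT0 vs WT0, 11 members were higher and 18 lower in MT0, against 13.6% of all tested genes higher and 11.6% lower. In MT0 vs TG0, 9 were higher and 11 lower, against 11.4% and 9.42% of all genes. In TG0 vs WT0, 7 were higher and 14 lower, against 11.1% and 11.3%. The median log2FC of the 77 members was -0.51 for MT0 vs WT0, 0.05 for MT0 vs TG0 and -0.24 in TG0 vs WT0, where that of all genes lay between 0.00 and 0.03. The first and the last of these counts were lower without WT0 replicate 1. That fit has 1 library left in WT0, and the share of all genes passing it was not counted.

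With injury, 7 members rose and 22 fell in WT7 vs WT0, against 13.2% of all genes higher and 11% lower. In TG7 vs TG0, 7 rose and 1 fell, against 6.69% and 2.68%. In MT7 vs MT0, 4 rose and 6 fell, against 5.56% and 6.48%. The WT count was again lower without WT0 replicate 1, and many of its calls were also lost without 1 of the WT7 libraries. Among injured hearts, 10 members were higher and 9 lower in MT7 than in WT7, against 4.6% and 5.62% of all genes. In MT7 vs TG7, 0 were higher and 4 lower, against 0.742% and 2.04%. In TG7 vs WT7, 5 were higher and 1 lower, against 0.847% and 0.289%. The response to injury differed between MT and WT for 2 members, *atp1a1a.3* and *kcnk5a*, where 1.97% of all genes passed that interaction test. Between MT and TG, edgeR called 0 members (1.41% of all genes), with 13 at an unadjusted p below 0.05 and 1 member called by DESeq2. Over the 9 comparisons of groups, 52 members were a DEG at least once and 25 never. The shares of all genes that were a DEG at least once, or that passed the unadjusted p, were not counted. These counts therefore do not set the members apart from other genes. Comparisons with a group in common share its libraries, so that the calls above are not independent of each other.

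**Figure D2:**
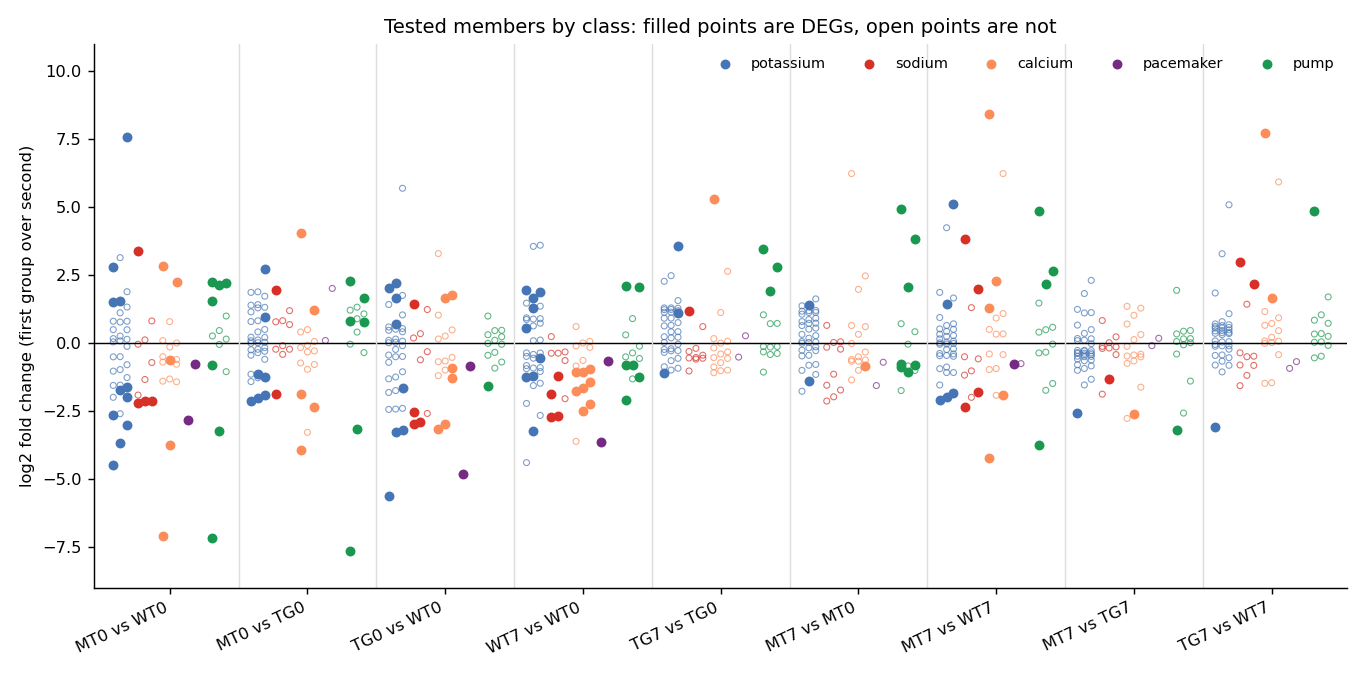
Log2 fold change of each of the 77 tested members (y axis) in the 9 comparisons of groups (x axis), coloured by class, with DEGs as filled and other members as open points. Filled points of the calcium class in WT7 vs WT0 (8 genes) all lie below 0, whereas filled pump points lie on both sides of 0 in MT0 vs WT0 (4 higher and 3 lower); values of genes with almost no counts in a group depend on the model's prior count.

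Of the 5 classes, the Na/K pump had the largest share of DEGs in MT0 vs TG0, 6 of 13 (46.2%, against 20.8% of all genes in either direction). In MT0 vs WT0 it had 7 of 13 (53.8%, against 25.3%), below the pacemaker class with 2 of 2. Of these pump calls, only those of *atp1a3b* and *atp1b1b* were kept in every alternative, and the others were lost without single libraries. Only 1 of 13, *atp1b2a*, was a DEG in TG0 vs WT0. *atp1a3b* encodes an alpha 3 subunit, the isoform best known from neurons in mammals. It measured 2348 and 1903 CPM in WT0, 1837 and 2279 in TG0, and 292 and 161 in MT0. At 7 dpa it measured 1598 and 1265 CPM in WT7, 852 and 1106 in TG7, and 82.8 and 131 in MT7. All 4 mutant libraries lay far below all 8 control libraries, and the control genotypes overlapped before injury. Its log2FC was -3.23 (SE 0.33, FDR = 0.000215) in MT0 vs WT0 and -3.18 (SE 0.33, FDR = 0.000251) in MT0 vs TG0, a 9.38-fold and a 9.08-fold lower level. It was likewise lower in MT7 than in WT7 (log2FC -3.74, SE 0.34, FDR = 0.000316) and in TG7 (-3.19, SE 0.33, FDR = 0.00149). In bulk RNA, fewer cells of a type and less RNA per cell cannot be told apart. Per 1000 CPM of summed cardiomyocyte markers, *atp1a3b* stood at 19.8 to 25.9 CPM in the uninjured controls and at 3.94 and 3.10 CPM in MT0, and at 14.3 to 22.6 CPM in WT7 and TG7 and at 2.77 and 3.09 CPM in MT7. These 4 calls were kept in every alternative run.

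The alpha 1 gene *atp1a1a.1*, which is required for heart growth in zebrafish embryos, moved the other way. It measured 1754 and 1603 CPM in WT0, 1313 and 1327 in TG0, and 2596 and 2011 in MT0, so that the mutant libraries exceeded all 4 controls. It was higher in MT0 than in TG0 (log2FC 0.80, SE 0.17, FDR = 0.0094), and its log2FC against WT0 was 0.46 (FDR = 0.074). The first call was lost without TG0 replicate 1 (FDR = 0.0693) or TG0 replicate 2 (FDR = 0.0617), at a log2FC of 0.80 and 0.82. As a share of the counts of all alpha genes, *atp1a3b* took 54.2% (exact Clopper-Pearson 95% interval 53.7 to 54.6) to 63% (62.6 to 63.3) in the uninjured controls, and 10.1% (9.79 to 10.3) and 7.3% (7.07 to 7.54) in MT0. *atp1a1a.1* took 36.7% to 45.6% and 89.4% and 91.1%, respectively. In MT7 the *atp1a3b* share was 6.88% and 8.15%, as against 57% and 62% in WT7 and 40.8% and 47.1% in TG7. The intervals cover counting error only, and the shares are of counts and not corrected for transcript length.

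Among the alpha genes with lower counts, *atp1a2a*, an alpha 2 subunit found in muscle and glia of mammals, measured 0.61 and 2.01 CPM in WT0, 1.1 and 1.46 in TG0, as against 4.07 and 8.26 in MT0. The mutant libraries lay above all control libraries before and after injury, and TG0 lay within the range of WT0, with 12.6 and 7.68 CPM in MT7 against 1.59 to 2.79 in WT7 and TG7. Its log2FC was 2.25 (SE 0.52, FDR = 0.0116) against WT0 and 2.26 (SE 0.51, FDR = 0.0116) against TG0, and 2.66 (FDR = 0.00967) in MT7 vs WT7. Without MT0 replicate 2 it was 1.65 (FDR = 0.09) against WT0 and 1.67 (FDR = 0.0985) against TG0, and without WT0 replicate 1 it was 1.63 (FDR = 0.0649). The TG0 call was also lost without TG0 replicate 1 (2.08, FDR = 0.0978) or TG0 replicate 2 (2.49, FDR = 0.0644), and the MT7 vs WT7 call without MT7 replicate 1 (2.28, FDR = 0.0556), WT7 replicate 1 (2.68, FDR = 0.114) or WT7 replicate 2 (2.65, FDR = 0.0995). *atp1a1b*, a second alpha 1 gene, was a DEG only in MT0 vs WT0 (log2FC 1.54, FDR = 0.0387), a call that rested on MT0 replicate 2, with 19.4 CPM against 6.45 in MT0 replicate 1 and 4.27 and 4.62 in WT0. Without that library the log2FC was 0.55 (FDR = 0.396), and the call was also lost without WT0 replicate 1 (1.5, FDR = 0.166) or WT0 replicate 2 (1.62, FDR = 0.1).

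The beta subunits were split as well. *atp1b1a*, the beta 1 gene with the most counts, did not pass the test between genotypes, with 1532 to 2126 CPM in WT0 and MT0 and 1354 and 1418 in TG0. Its paralog *atp1b1b* measured 6.17 and 2.98 CPM in WT0, 5.06 and 7.49 in TG0, as against 0.0565 and 0 in MT0. The MT0 libraries together held 1 count, against 131 counts in WT0 and 232 in TG0. At equal library size this is a ratio of 186 (95% counting interval 32.8 to 7400) to WT0 and of 256 (45.4 to 10100) to TG0, with an FDR of 0.00181 and 0.00126. Without WT0 replicate 1 the ratio to WT0 was 119 (20.2 to 4820, FDR = 0.0118), from 40 counts in the other WT0 library. In MT7 it measured 0.87 and 1.05 CPM, a rise over MT0 (FDR = 0.0311) that was lost without any 1 of those 4 libraries (FDR = 0.0638 to 0.121).

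*atp1b3a*, a beta 3 gene, was higher in MT0, with 1.13 and 1.71 CPM against 0.30 to 0.49 in the 4 control libraries. Its log2FC was 2.14 (SE 0.48, FDR = 0.00982) against WT0 and 1.67 (SE 0.44, FDR = 0.0236) against TG0. Without MT0 replicate 2 these were 1.82 (FDR = 0.055) and 1.34 (FDR = 0.134), and the TG0 call was lost without TG0 replicate 1 (1.81, FDR = 0.0859) or TG0 replicate 2 (1.54, FDR = 0.126) too. *atp1b2a*, a beta 2 gene known as a glial adhesion molecule in mammals, differed between the controls. It measured 89 and 53.9 CPM in WT0, 21 and 26.1 in TG0, and 43.1 and 38.4 in MT0, so that each genotype occupied a range of its own. The log2FC was -1.60 (SE 0.22, FDR = 0.00192) in TG0 vs WT0, 0.79 (SE 0.22, FDR = 0.0295) in MT0 vs TG0 and -0.81 (SE 0.22, FDR = 0.0219) in MT0 vs WT0. Without WT0 replicate 1 the last was -0.39 (FDR = 0.183), and the call was also lost without MT0 replicate 1 (-0.88, FDR = 0.0654) or MT0 replicate 2 (-0.72, FDR = 0.131). The MT0 vs TG0 call was lost without any 1 of the 4 libraries compared (0.64 to 0.96), whereas the TG0 vs WT0 call was kept in every alternative.

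**Figure D3:**
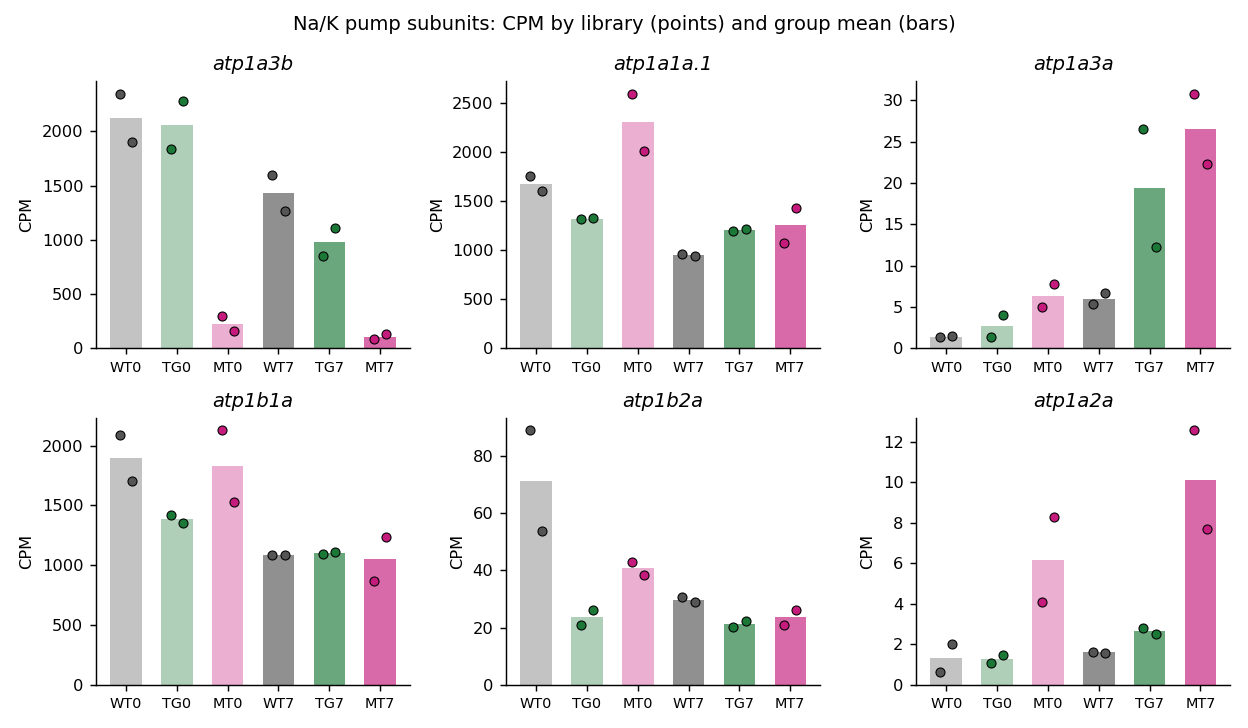
CPM of 6 Na/K pump genes (y axes, each with its own scale from 0) in the 6 groups (x axes), with the 2 libraries of a group as points and their mean as a bar. The points of atp1a3b in MT0 (292 and 161 CPM) and MT7 (82.8 and 131 CPM) lie below those of all control libraries, and the points of atp1a3a are higher at 7 dpa than in uninjured hearts of the same genotype.

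After injury, *atp1a1a.1*, *atp1b1a* and *atp1b2a* fell in WT and MT. *atp1a1a.1* measured 964 and 938 CPM in WT7, 1198 and 1216 in TG7, and 1071 and 1435 in MT7, each library below the uninjured ones of its genotype. The log2FC was -0.82 (SE 0.17, FDR = 0.00881) in WT7 vs WT0 and -0.88 (SE 0.17, FDR = 0.0123) in MT7 vs MT0, and it was -0.13 (FDR = 0.68) in TG7 vs TG0. *atp1b1a* gave -0.81 (SE 0.20, FDR = 0.0187) in WT and -0.80 (SE 0.20, FDR = 0.0324) in MT. In MT, the calls of *atp1a1a.1* and *atp1b1a* were lost without MT0 replicate 1 (-0.69 and -0.55) or MT7 replicate 1 (-0.69 and -0.57). In WT they were lost without WT0 replicate 1 (-0.75 and -0.65), WT7 replicate 1 (-0.85 and -0.82) or WT7 replicate 2 (-0.79 and -0.80). *atp1b2a* fell in WT (-1.26, SE 0.22, FDR = 0.00383), a call kept in every alternative, and in MT (-0.79, SE 0.22, FDR = 0.0432), a call lost without any 1 of the 4 libraries (-0.65 to -0.96). The fall of *atp1a3b* in MT7 vs MT0 (-1.08, FDR = 0.046) was lost without MT0 replicate 1 (-0.60), MT7 replicate 1 (-0.80) or WT0 replicate 1 (-1.09), which only shares the fit. For *atp1a3b* the log2FC was -1.07 (FDR = 0.0544) in TG7 vs TG0 and -0.57 (FDR = 0.192) in WT7 vs WT0, and that of *atp1b3b* did not pass the test in any genotype. Per 1000 CPM of cardiomyocyte markers *atp1a1a.1* went from 35 and 38.7 CPM in MT0 to 35.9 and 33.8 in MT7, and from 19.3 and 19.2 in WT0 to 13.7 and 14.3 in WT7. The part of the lower muscle marker sums in these falls was not tested.

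*atp1a3a*, the other alpha 3 gene, was one of 2 members that changed in the same direction after injury in all 3 genotypes, 1 higher and 1 lower, against 1.87% and 0.489% of all genes. It measured 1.36 and 1.42 CPM in WT0, 1.40 and 4.02 in TG0, and 4.92 and 7.76 in MT0, and then 5.29 and 6.63 in WT7, 26.5 and 12.3 in TG7, and 30.8 and 22.2 in MT7. Injured libraries lay above the uninjured ones of their genotype without overlap. The log2FC was 2.10 (SE 0.54, FDR = 0.0197) in WT, 2.81 (SE 0.49, FDR = 0.0075) in TG and 2.06 (SE 0.45, FDR = 0.0186) in MT. It was also higher in MT0 than in WT0 (2.20, FDR = 0.0149) and in MT7 than in WT7 (2.15, FDR = 0.0162). These calls depended on single libraries: the WT one was lost without any 1 of its 4 libraries (1.94 to 2.25), the TG one without TG0 replicate 1 (2.26) or TG7 replicate 1 (2.16), and the MT one without MT0 replicate 1 (1.76) or MT7 replicate 1 (1.80). The genotype calls were lost without MT0 replicate 2 (1.84), WT0 replicate 1 (2.17) or WT0 replicate 2 (2.24), and without MT7 replicate 1 (1.91), WT7 replicate 1 (2.02) or WT7 replicate 2 (2.32). Markers of neurons and glia (13 of 14 listed) summed to 13.7 to 38.9 CPM in WT0 and TG0, to 21.8 and 34.1 in MT0, to 28 and 28.8 in WT7, to 49.6 and 55.8 in TG7, and to 31.3 and 46.9 in MT7. The largest part of each sum was *syt1a*, at 8.88 and 5.29 CPM in WT0 and 15.1 and 17.9 in WT7. Both WT7 libraries lay above both WT0 libraries for *syt1a*, *plp1b* and *elavl4*. By contrast *snap25a*, *snap25b*, *phox2bb*, *prph*, *elavl3*, *stmn2a*, *mbpa* and *mpz* did not exceed the higher WT0 library in WT7. The part of neurons and glia in the rise of *atp1a3a* was not tested. *atp1b3a* rose as well in WT (2.06, FDR = 0.0127) and TG (1.92, FDR = 0.0257), where the WT call was lost without WT0 replicate 1 (2.16) or WT7 replicate 1 (1.71) and the TG call without any 1 of its libraries (1.79 to 2.06).

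*atp1a1a.3*, which lies next to *atp1a1a.1* in a row of near copies on 1 chromosome, was present at 7 dpa in the transgenic lines. It measured 0.27 and 0.37 CPM in WT0, 0.24 and 0.15 in TG0, and 0.17 and 0.13 in MT0. At 7 dpa it measured 0.0485 and 0.0884 CPM in WT7, a total of 3 counts, 1.88 and 2.5 CPM in TG7, and 2.24 and 2.17 CPM in MT7. TG7 and MT7 overlapped, and all 4 of their libraries exceeded all other libraries. It rose in TG (log2FC 3.45, SE 0.50, FDR = 0.00317) and in MT (3.81, SE 0.51, FDR = 0.00283). The ratio to WT7 was 32.2 (counting interval 10.7 to 159) in TG7 (FDR = 0.00591) and 31.8 (10.6 to 156) in MT7 (FDR = 0.000996). The response of MT differed from that of WT (interaction log2FC 5.93, SE 0.83, FDR = 0.00991), a call lost without WT7 replicate 1 (5.6, FDR = 0.0595) or WT7 replicate 2 (6.37, FDR = 0.0591). TG7 vs WT7 lost its call without TG7 replicate 2 (FDR = 0.0789), WT7 replicate 1 (FDR = 0.0947) or WT7 replicate 2 (FDR = 0.122). The fall from 9 to 3 counts in WT7 vs WT0 (ratio 4.61, interval 1.15 to 26.5, FDR = 0.0481) was lost without any 1 of its libraries (FDR = 0.11 without WT0 replicate 1). Since reads of near copies can be dropped or shared in counting, levels of this row of genes are uncertain.

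Among sodium channel genes, 2 of 10 were DEGs in MT0 vs TG0 (20%, against 20.8% of all genes) and 4 in MT0 vs WT0 (40%, against 25.3%). The 2 called against both controls, *scn3b* and *scn1ba*, encode auxiliary beta subunits and moved in opposite directions. *scn3b*, a beta 3 subunit, measured 354 and 304 CPM in WT0, 277 and 250 in TG0, and 81 and 60.6 in MT0. After injury *scn3b* measured 288 and 219 CPM in WT7, 177 and 179 in TG7, as against 62.7 and 80.5 in MT7. The 4 mutant libraries were the lowest, and none overlapped a control library. The log2FC was -2.22 (SE 0.20, FDR = 0.000115) in MT0 vs WT0, -1.90 (SE 0.20, FDR = 0.000242) in MT0 vs TG0, -1.82 (SE 0.19, FDR = 0.000656) in MT7 vs WT7 and -1.32 (SE 0.19, FDR = 0.00728) in MT7 vs TG7. The last was lost without MT7 replicate 1 (-1.14, FDR = 0.0642), TG7 replicate 1 (-1.33, FDR = 0.0605) or TG7 replicate 2 (-1.31, FDR = 0.0711), and the other calls were kept in every alternative. Per 1000 CPM of cardiomyocyte markers *scn3b* stood at 2.51 to 3.89 CPM in the uninjured controls and 1.09 and 1.17 CPM in MT0, and at 2.67 to 4.08 CPM in WT7 and TG7 and 2.1 and 1.9 CPM in MT7.

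*scn1ba*, a beta 1 subunit, was higher in MT0 than in both controls, where *scn3b* was lower. Its CPM was 0.88 and 0.75 in WT0, 2.13 and 2.31 in TG0, as against 10.1 and 7.27 in MT0. The groups formed 3 separate levels, with TG0 between the others. The log2FC was 3.40 (SE 0.29, FDR = 9.22e-05) in MT0 vs WT0, 1.96 (SE 0.25, FDR = 0.000743) in MT0 vs TG0 and 1.44 (SE 0.30, FDR = 0.00891) in TG0 vs WT0. After injury it measured 0.73 and 0.53 CPM in WT7, 4.96 and 5.11 in TG7, and 9.32 and 8.53 in MT7. It was again higher in MT7 than in WT7 (3.82, SE 0.29, FDR = 0.000132) and in TG7 than in WT7 (2.99, SE 0.28, FDR = 0.00369), whereas MT7 vs TG7 did not pass the test. The TG7 vs WT7 call was lost without WT7 replicate 2 (2.78, FDR = 0.0968), and a rise in TG7 vs TG0 (1.18, FDR = 0.0205) without any 1 of its libraries (1.12 to 1.24). The TG0 vs WT0 call was lost when only the 4 compared libraries were fitted. *scn2b*, a further beta subunit, was never a DEG and stood at 4.93 to 9.54 CPM in all libraries.

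Calls of *scn12ab* and *scn4ba* depended on WT0 replicate 1. *scn12ab*, which RefSeq lists as an older name of the cardiac channel gene *scn5lab*, measured 30.2 CPM in WT0 replicate 1, 4.70 in WT0 replicate 2, and 0.80 to 5.07 in the other 10 libraries. The beta 4 subunit gene *scn4ba* measured 116 CPM in WT0 replicate 1, 13.9 in WT0 replicate 2, and 4.18 to 15.4 elsewhere. Both were DEGs against WT0 in MT0, TG0 and WT7, with log2FC between -2.15 and -2.97, and without WT0 replicate 1 none of these calls was left. *scn12ab* then gave -0.24 in MT0, -1.03 in TG0 and -0.81 in WT7, and *scn4ba* 0.09 in MT0, which reverses its direction, -0.73 in TG0 and -0.44 in WT7. The lists hold 2 further rows under the *scn12ab* name, which behaved likewise in WT0, with 39 and 6.71 CPM in one and 6.51 and 0.45 CPM in the other. No row was matched to coordinates, so how reads were split among them is not known.

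*scn4ab*, the alpha subunit of the skeletal muscle sodium channel, separated the injured genotypes. It measured 3.88 and 4.86 CPM in WT7, 19.3 and 19.8 in TG7, and 16.8 and 17.6 in MT7, as against 7.29 to 16.5 in the 6 uninjured libraries. Both WT7 libraries were lower than any other library. The log2FC was 2.16 (SE 0.34, FDR = 0.0195) in TG7 vs WT7, 1.97 (SE 0.34, FDR = 0.00635) in MT7 vs WT7 and -1.21 (SE 0.34, FDR = 0.0282) in WT7 vs WT0. The MT7 call was lost without WT7 replicate 1 (1.84, FDR = 0.0929) or WT7 replicate 2 (2.14, FDR = 0.0544), and the other calls without any 1 of their libraries (2.02 to 2.33, and -1.07 to -1.38). The interaction of MT and WT gave 1.86 (FDR = 0.0757) for this gene.

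Calcium channel genes fell with injury in wild-type hearts. In WT7 vs WT0, 8 of 16 were DEGs and all 8 were lower (50%, against 11% of all genes lower), with a class median log2FC of -1.0 against 0.00 for all genes, whereas 1 rose and 0 fell in TG7 vs TG0 and 0 rose and 1 fell in MT7 vs MT0 (6.25% in each, against 9.37% and 12% of all genes in either direction). Without WT0 replicate 1, 6 of the 8 calls in WT were lost, and *cacna1c* and *cacna2d1a* kept theirs. The class median was -0.37 in TG7 vs TG0 and -0.42 in MT7 vs MT0. The interactions of MT with WT and with TG called 0 of 16 calcium channel genes in edgeR, with 5 and 2 at an unadjusted p below 0.05. The share of all genes at that p was not counted. The difference in these counts between genotypes is therefore not a tested difference.

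*cacna1c*, the pore of the cardiac L-type channel, measured 511 and 380 CPM in WT0, 318 and 298 in TG0, and 333 and 247 in MT0, and 224 and 204 in WT7, 218 and 206 in TG7, and 137 and 181 in MT7. Every injured library was lower than the uninjured libraries of its genotype. It fell in WT (log2FC -1.05, SE 0.20, FDR = 0.00507) and MT (-0.86, SE 0.20, FDR = 0.0208), and gave -0.62 (SE 0.19, FDR = 0.0401) in MT0 vs WT0. The last became -0.38 (FDR = 0.279) without WT0 replicate 1 and -0.41 (FDR = 0.237) without MT0 replicate 2. The WT fall was lost without WT7 replicate 2 (-0.98, FDR = 0.0615), and the MT fall without MT0 replicate 1 (-0.64, FDR = 0.146) or MT7 replicate 1 (-0.68, FDR = 0.15). Per 1000 CPM of cardiomyocyte markers it stood at 5.63 and 4.54 CPM in WT0 and 3.18 and 3.11 in WT7, and at 4.49 and 4.75 CPM in MT0 and 4.59 and 4.27 in MT7. Whether fewer cardiomyocytes had a part in the falls was not tested.

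*cacna2d1a*, an alpha2delta subunit that raises channel density at the membrane, fell in WT from 221 and 118 CPM to 60.6 and 64.3 (log2FC -1.44, SE 0.25, FDR = 0.00352), a call kept in every alternative, at -0.92 without WT0 replicate 1. Its lower level in TG0 than in WT0 (-0.91, FDR = 0.0252) was not kept without WT0 replicate 1 (-0.38), TG0 replicate 1 (-1.11) or TG0 replicate 2 (-0.71). *cacna1g*, the pore of a T-type channel that opens near the resting potential, measured 166 and 140 CPM in WT0 and 64.2 and 79.8 in WT7, as against 150 and 172 in TG7. The 2 WT7 libraries were lower than those of every other group except for MT7 replicate 1, at 73.6 CPM. It fell in WT (-1.09, SE 0.25, FDR = 0.0118), a call lost without WT0 replicate 1 (-0.96), WT7 replicate 1 (-0.94) or WT7 replicate 2 (-1.24), and was not a DEG in any other comparison. The other 5 that fell were *cacna1ab*, *cacna1sa*, *cacna2d2*, *cacnb2a* and *cacnb4a*, and each of these calls was lost without WT0 replicate 1 (-0.67, -0.50, -1.18, -0.89 and -0.68) or any 1 WT7 library. Of these, *cacnb2a*, the beta subunit that pairs with the L-type pore in the heart, had the closest replicates, with 5.49 and 5.07 CPM in WT0 and 2.62 and 2.83 in WT7 (-0.95, SE 0.29, FDR = 0.0347).

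**Figure D4:**
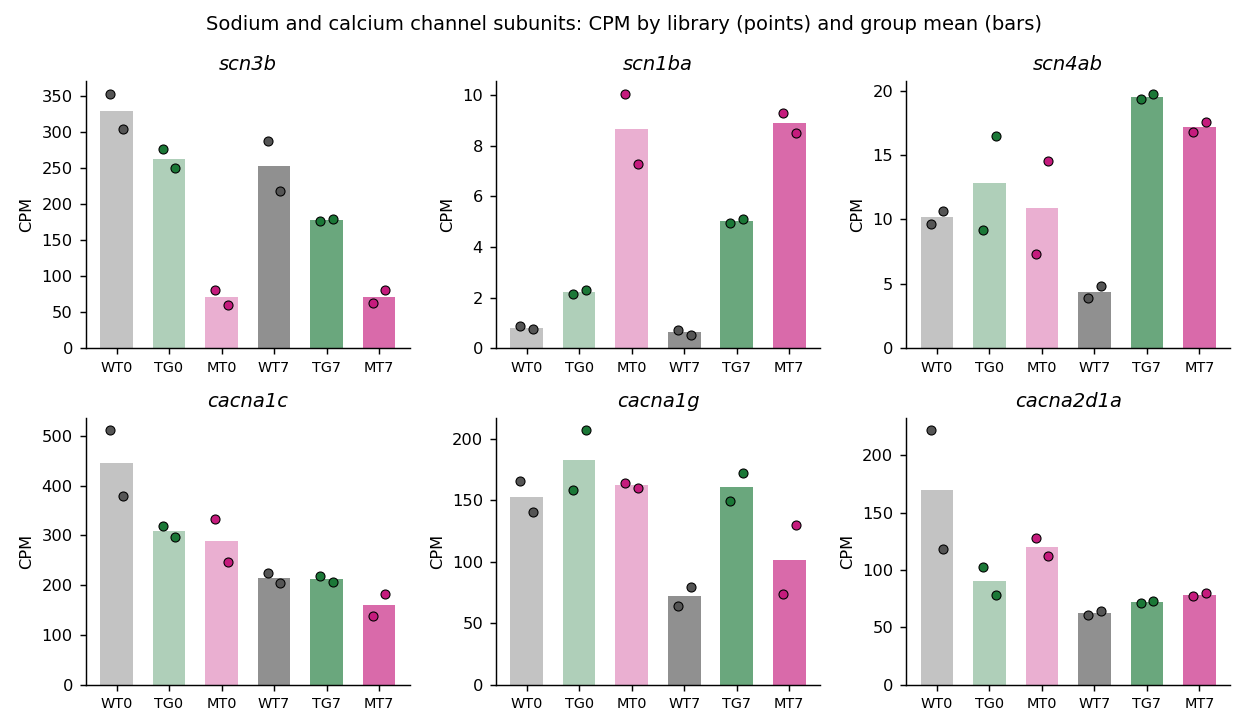
CPM of 3 sodium channel genes (upper row) and 3 calcium channel genes (lower row) on y axes that start at 0, in the 6 groups on the x axes, with libraries as points and group means as bars. The points of scn3b in MT0 and MT7 (60.6 to 81 CPM) are below and those of scn1ba (7.27 to 10.1 CPM) above every control library, and cacna1c is lower at 7 dpa than before injury in each genotype.

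Calcium channel genes best known from neurons differed between genotypes. *cacna1ab*, a P/Q-type pore, held 1 count in MT0 and 2 in MT7, against 123 in WT0, 17 in TG0, 38 in WT7 and 13 in TG7. The ratio of WT0 to MT0 was 175 (95% counting interval 30.8 to 6950, FDR = 0.0015), and that of TG0 to MT0 was 18.7 (2.93 to 783, FDR = 0.0385). WT0 itself was uneven, with 7.05 and 1.42 CPM, and without replicate 1 the ratio was 56.6 (9 to 2350, FDR = 0.00848). The first call was kept in every alternative (highest FDR 0.0419), and the second was lost without any 1 of its libraries. Its paralog *cacna1aa*, which had more counts, was higher in TG than in WT, with 107 and 79.8 CPM in TG0, 24.2 and 31.2 in WT0, and 60.4 and 35 in MT0. MT0 vs WT0 (log2FC 0.78, FDR = 0.101) and MT7 vs WT7 (0.92, FDR = 0.109) did not pass the test. The TG0 libraries exceeded all other uninjured ones (log2FC 1.75 over WT0, SE 0.33, FDR = 0.00644), and at 7 dpa TG7 exceeded WT7 (1.67, FDR = 0.0477). The uninjured call was lost without TG0 replicate 1 (1.54) or WT0 replicate 1 (1.58), and the injured one without any 1 of its libraries or without WT0 replicate 1 in the fit (1.29 to 2.21).

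*cacna1ba*, an N-type pore, measured 0.0678 and 0.0746 CPM in WT0, 0 and 0.0503 in TG0, and 0.45 and 0.63 in MT0. At 7 dpa it had 0 counts in both WT7 libraries, 0.91 and 1.72 CPM in TG7, and 2.65 and 1.65 in MT7. All TG7 and MT7 libraries exceeded all others. Against a floor of 3 counts over WT7, it was at least 19.9-fold higher in TG7 (FDR = 0.0183) and at least 30.9-fold higher in MT7 (FDR = 0.0022), the second in every alternative and the first not without any 1 of its libraries. The ratio of MT0 to TG0 was 20 (interval 3.23 to 824, FDR = 0.0157) and to WT0 7.75 (1.91 to 68, FDR = 0.0386). These were lost without MT0 replicate 2 (FDR = 0.0717) or TG0 replicate 1 (FDR = 0.086), and without any 1 of the libraries (FDR = 0.152 without WT0 replicate 1), respectively. The ratio of TG7 to TG0 was 50.1 (8.64 to 2010, FDR = 0.00816), which was lost without TG0 replicate 1 (FDR = 0.0654) or TG7 replicate 2 (FDR = 0.0585).

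Of the auxiliary genes, *cacnb4b*, a beta 4 subunit, measured 4.35 and 4.62 CPM in MT0, 1.71 and 2.16 in TG0, and 1.22 and 0.67 in WT0, again 3 separate levels. It was higher in MT0 than in WT0 (log2FC 2.23, SE 0.39, FDR = 0.0031; 2.74 without WT0 replicate 1) and than in TG0 (1.21, SE 0.36, FDR = 0.0368). The second call and that of MT7 vs WT7 (1.29, FDR = 0.0487) were lost without any 1 of their libraries (1.06 to 1.40, and 1.0 to 1.57). Its paralog *cacnb4a* measured 17.7 and 2.91 CPM in WT0 and 0.72 to 1.51 in TG0 and MT0. It was lower in MT0 than in WT0 (-3.77, FDR = 0.00681) and in TG0 than in WT0 (-2.97, FDR = 0.0186). Without WT0 replicate 1 these were -1.93 (FDR = 0.0565) and -1.15 (FDR = 0.232). *cacng6b*, a gamma subunit, was highest in TG0, with 3.60 and 2.46 CPM against 0.88 and 1.04 in WT0 and 0.40 and 0.76 in MT0. It was lower in MT0 than in TG0 (-2.36, SE 0.47, FDR = 0.00638), a call lost without TG0 replicate 1 (-2.06, FDR = 0.0537), and lower in MT7 than in TG7 (-2.62, FDR = 0.025) and WT7 (-1.90, FDR = 0.0435), calls lost without any 1 of their libraries. *cacng1-2*, a row under the name of a skeletal muscle gamma subunit, was at 0.80 and 0.72 CPM in TG7 replicate 1 and MT7 replicate 2 and at most 0.21 CPM elsewhere. It met the count rule through those 2 libraries alone, so its higher level in them was fixed by the choice of members. Of 8 skeletal muscle markers, 4 were highest in those 2 libraries (*mylpfa*, *tnnt3b*, *myl1* and *tnni2a.4*), with *mylpfa* at 21.4 and 81.8 CPM and at most 1.08 CPM elsewhere. The sum of the list, which *ckma* dominates, was 5051 and 1941 CPM there and 1640 to 6298 CPM elsewhere. The part of skeletal muscle in *cacng1-2* was not tested.

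Of the potassium channel genes, 11 of 36 were DEGs when MT0 was compared with WT0 and 7 when it was compared with TG0, in both directions (30.6% and 19.4%, against 25.3% and 20.8% of all genes), and their medians were -0.04 and 0.05. The repolarizing channel *kcnh6a*, which carries the rapid delayed rectifier of the zebrafish ventricle, was the second member that changed after injury in all 3 genotypes. It measured 416 and 510 CPM in WT0, 526 and 752 in TG0, and 651 and 650 in MT0, and 331 and 308 in WT7, 282 and 313 in TG7, and 232 and 257 in MT7. All 6 injured libraries were below all 6 uninjured ones. The log2FC was -0.54 (SE 0.18, FDR = 0.0474) in WT, -1.11 (SE 0.18, FDR = 0.00509) in TG and -1.41 (SE 0.18, FDR = 0.00231) in MT. The MT call was kept in every alternative, the TG call was lost without TG7 replicate 1 (-1.03, FDR = 0.0779), and the WT call without any 1 of its libraries (-0.37 to -0.67). The fall was not shown to differ between MT and WT (interaction -0.88, SE 0.25, FDR = 0.1) or MT and TG (-0.31, SE 0.25, FDR = 0.614). Per 1000 CPM of cardiomyocyte markers, *kcnh6a* stood at 4.59 and 6.1 CPM in WT0 and 4.69 and 4.68 in WT7, at 5.68 and 7.56 in TG0 and 4.72 and 4.66 in TG7, and at 8.79 and 12.5 in MT0 and 7.77 and 6.04 in MT7.

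*kcnq1*, the pore of the slow delayed rectifier, moved little, with 27.7 and 40.6 CPM in WT0 and 40.6 to 60.5 in the other 10 libraries. It was higher than in WT0 in TG0 (log2FC 0.70, FDR = 0.0163) and WT7 (0.54, FDR = 0.0399). Without WT0 replicate 1 these were 0.46 (FDR = 0.0867) and 0.29 (FDR = 0.23), and the calls were also lost without TG0 replicate 2 (0.57), WT7 replicate 1 (0.53) or WT7 replicate 2 (0.55). By contrast *kcne4*, whose product inhibits KCNQ1 currents in mammals, measured 9.44 and 20.4 CPM in MT0, as against 2.58 and 1.72 in WT0 and 2.62 and 1.91 in TG0. The 2 MT0 libraries differed by more than 2-fold, and both exceeded all 4 controls. Markers of smooth muscle and mural cells (4 of 6 listed) summed to 654 and 1211 CPM in MT0 and to 190 to 390 CPM in WT0 and TG0, and 3 of the 4 were higher in both MT0 libraries than in all 4 controls. The higher sum was in MT0 replicate 2. All 7 members counted above as more than 2-fold apart in MT0 were also higher in that library. They were *kcne4*, *kcnj8*, *kcnj2a*, *kcnj3*, *kcnab2b*, *atp1a1b* and *atp1b4*. The direction of such differences over all genes was not counted, so this lean is not shown to be particular to the members. Between MT0 replicates 1 and 2, *tagln* differed most (134 and 722 CPM), and *acta2* went the other way (455.5 and 368 CPM). At 7 dpa the sums were 567 to 747 CPM in WT7 and TG7, where *kcne4* measured 2.86 to 5.13 CPM, and 756 and 1042 CPM in MT7. Leukocyte markers (8 of 8 listed) also had the higher sum in MT0 replicate 2 (101 and 216 CPM). The part of either cell type was not tested. For *kcne4* the log2FC was 2.79 (SE 0.43, FDR = 0.0018) against WT0 and 2.73 (SE 0.43, FDR = 0.00195) against TG0, and both calls were kept in every alternative. In MT7 it measured 9.07 and 12.4 CPM against 2.86 to 5.13 in WT7 and TG7 (1.42 over WT7, FDR = 0.049, lost without any 1 of their libraries or WT0 replicate 1, 1.08 to 1.90).

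*kcnj11* encodes the pore of the ATP-sensitive potassium channel, which opens when ATP falls, and it was lower in the mutant before and after injury. It measured 14.2 and 7.46 CPM in WT0, 7.74 and 7.64 in TG0, and 1.81 and 1.66 in MT0. In injured hearts it measured 5.34 and 9.37 CPM in WT7, 11.6 and 8.96 in TG7, and 2.36 and 1.09 in MT7. No mutant library overlapped a control. The log2FC was -2.65 (SE 0.44, FDR = 0.00244) against WT0, -2.15 (SE 0.44, FDR = 0.00704) against TG0, -2.09 (SE 0.43, FDR = 0.014) in MT7 vs WT7 and -2.57 (SE 0.43, FDR = 0.0135) in MT7 vs TG7. The first call was kept in every alternative, and the others were lost, in order, without MT0 replicate 2 (-2.08, FDR = 0.0631), without MT7 replicate 2 (-1.62, FDR = 0.0676) or WT7 replicate 2 (-1.64, FDR = 0.12), and without TG7 replicate 1 (-2.39, FDR = 0.104) or TG7 replicate 2 (-2.76, FDR = 0.0726). Its regulatory partner *abcc8*, a sulfonylurea receptor, was lower in MT7 than in WT7 (-3.44, FDR = 0.00195) and TG7 (-3.55, FDR = 0.00416), with 0.79 and 0.32 CPM against 4.61 to 7.51. Before injury *abcc8* was not a DEG in MT0 vs WT0 (-0.64, FDR = 0.257) or MT0 vs TG0 (-1.06, FDR = 0.0819). The related *abcc9* measured 42.3 to 174 CPM over the libraries. It was lower in MT7 than in TG7 (-1.48, FDR = 0.037). It was not a DEG in MT7 vs WT7 (-0.62, FDR = 0.243), MT0 vs WT0 (-0.27, FDR = 0.551) or MT0 vs TG0 (-0.16, FDR = 0.758). *kcnj8*, the pore of the related vascular channel, was not a DEG, with 4.04 CPM in MT0 replicate 2 and 0.49 to 1.80 in the other libraries.

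*kcng1* encodes a silent subunit that modifies Kv2 channels. It measured 13.8 and 10.9 CPM in WT0, 5.49 and 2.36 in TG0, and 0.79 and 1.12 in MT0, so that the genotypes did not overlap. The log2FC was -3.67 (SE 0.43, FDR = 0.000428) in MT0 vs WT0, kept in every alternative, -2.01 (SE 0.43, FDR = 0.00861) in MT0 vs TG0 and -1.66 (SE 0.38, FDR = 0.014) in TG0 vs WT0. The second was lost without MT0 replicate 1 (-1.79) or TG0 replicate 1 (-1.29), and the third without TG0 replicate 2 (-1.16) or WT0 replicate 1 (-1.48). It was also lower in MT7 than in WT7 (-2.0, FDR = 0.0124), a call lost without MT7 replicate 2 (-1.67), WT7 replicate 1 (-2.04) or WT7 replicate 2 (-1.95). *kcnn1a*, a calcium-activated channel of small conductance, was lower in MT0, with 4.07 and 3.59 CPM against 14.9 and 8.87 in WT0 and 9.03 and 7.75 in TG0 (log2FC -1.64, SE 0.28, FDR = 0.00281, and -1.13, SE 0.28, FDR = 0.0168). The TG0 call was lost without any 1 of its libraries (-1.01 to -1.23), and a fall in WT7 vs WT0 (-1.21, FDR = 0.0117) without WT0 replicate 1 (-0.78) or either WT7 library (-1.21 and -1.20).

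*kcnab2b*, a cytoplasmic subunit of Kv channels, was lower in MT0 than in WT0 (log2FC -2.0, FDR = 0.0298) and TG0 (-1.90, FDR = 0.04), with 0.79 and 3.46 CPM in MT0, 10.4 and 7.01 in WT0, and 4.82 and 11.4 in TG0. These calls were lost without MT0 replicate 1 (-1.32 and -1.23), and also without WT0 replicate 1 (-1.68) and TG0 replicate 2 (-1.15). Its relative *kcnab1b* was higher in TG0 than in WT0 (2.03, SE 0.42, FDR = 0.00896; 0.61 and 0.52 CPM in WT0, 1.89 and 2.77 in TG0), a call lost without TG0 replicate 2 (1.73, FDR = 0.0534). It rose in WT7 vs WT0 (1.87, FDR = 0.0109), lost without WT7 replicate 2 (1.62), and was lower in MT0 than in TG0 (-1.26, FDR = 0.0399), lost without any 1 of those libraries (-0.95 to -1.5).

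Leak channels of the K2P family moved in opposite directions. *kcnk6*, a TWIK-type channel, measured 5.49 and 4.77 CPM in WT0, 6.04 and 8.75 in TG0, and 13.3 and 15.6 in MT0, and 11.4 to 18.8 in the 6 injured libraries. The MT0 libraries thus lay within the range of injured hearts and above the uninjured controls. The log2FC was 1.49 (SE 0.21, FDR = 0.00111) in MT0 vs WT0 and 1.29 (SE 0.21, FDR = 0.00287) in WT7 vs WT0, both kept in every alternative. It was 0.96 (FDR = 0.00858) in MT0 vs TG0, lost without MT0 replicate 2 (0.85) or TG0 replicate 1 (0.73), and 1.12 (FDR = 0.00953) in TG7 vs TG0, lost without TG0 replicate 1 (0.88), TG7 replicate 1 (1.22) or TG7 replicate 2 (1.0).

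*kcnk5a*, a TASK-2 type channel, separated the fish with the transgene from those without it. It measured 14.6 and 15.6 CPM in WT0, 0.18 and 0.40 in TG0, and 0.57 and 0.76 in MT0. In injured hearts it measured 5.97 and 6.63 CPM in WT7, 0.80 and 0.70 in TG7, and 1.95 and 1.57 in MT7. All WT libraries were higher than all libraries with the transgene. The log2FC was -5.62 (SE 0.36, FDR = 7.73e-05) in TG0 vs WT0 and -4.48 (SE 0.33, FDR = 5.18e-05) in MT0 vs WT0, both kept in every alternative. MT0 vs TG0 did not pass the test (1.14, SE 0.40, FDR = 0.0716). At 7 dpa it was lower than in WT7 in TG7 (-3.07, FDR = 0.0045; lost without TG7 replicate 2, -2.97, or WT7 replicate 2, -2.99) and MT7 (-1.84, FDR = 0.0041). With injury it fell in WT (-1.26, SE 0.27, FDR = 0.00944) and rose in MT (1.38, SE 0.32, FDR = 0.0229), and the responses differed (interaction 2.64, SE 0.42, FDR = 0.0181). The fall was lost without WT7 replicate 1 (-1.19) or WT7 replicate 2 (-1.33), the rise without MT0 replicate 1 (1.19) or MT7 replicate 1 (1.21), and the interaction without MT7 replicate 1 (2.48), WT7 replicate 1 (2.57) or WT7 replicate 2 (2.70). Presence of the transgene and other differences between the WT and transgenic fish cannot be told apart here.

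**Figure D5:**
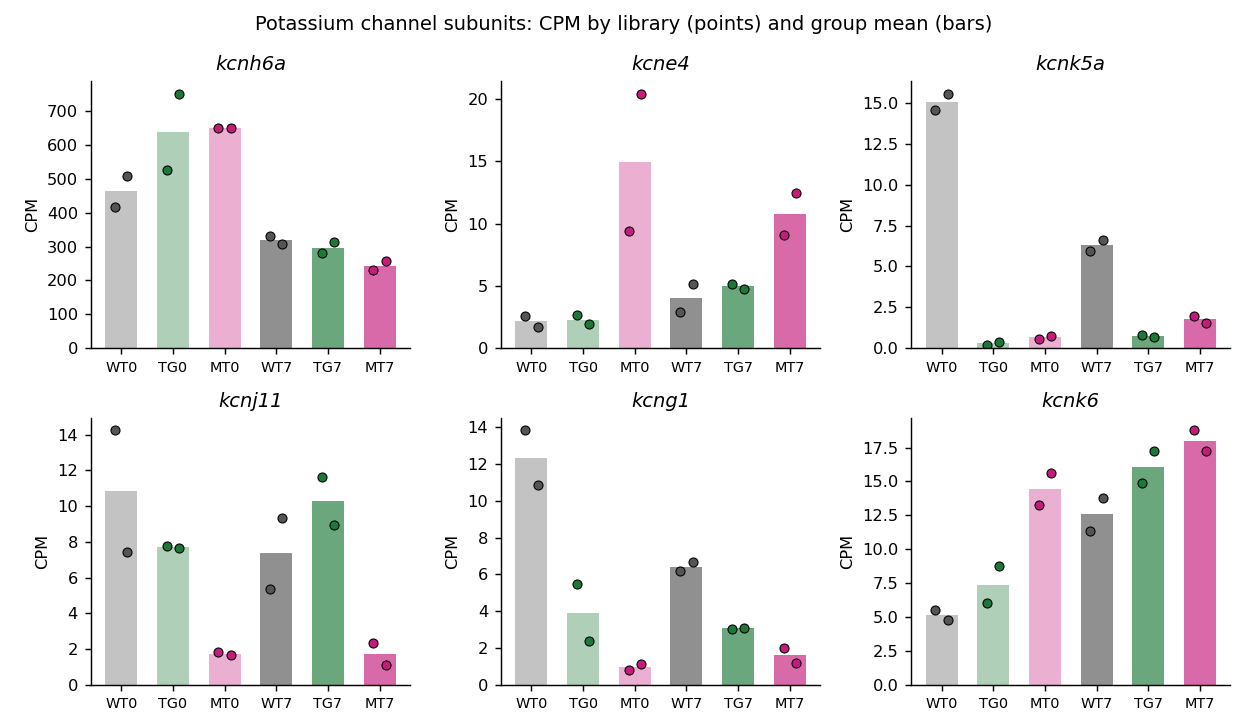
CPM of 6 potassium channel genes (y axes from 0, each with its own scale) in the 6 groups (x axes), with libraries as points and group means as bars. kcnh6a is lower at 7 dpa in all genotypes, kcne4 is raised and kcnj11 and kcng1 are lowered in MT0, and kcnk5a is at 5.97 to 15.6 CPM in the WT libraries and at most 1.95 CPM in all others.

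Inward rectifiers showed how far single libraries can set a value. *kcnj14* measured 88.5 CPM in WT0 replicate 1, 8.87 in WT0 replicate 2 and 1.45 to 6.73 in the other libraries. Its calls against WT0 (log2FC -3.00 in MT0, -3.21 in TG0, -3.23 in WT7; FDR = 0.0193, 0.0185 and 0.0162) were all lost without replicate 1 (-0.53, -0.74 and -0.77). *kcnj2a*, a channel that holds the resting potential of ventricular muscle, was higher in TG0 (16.6 and 11.8 CPM) than in WT0 (4.14 and 1.94; 2.22, SE 0.69, FDR = 0.0425), a call lost without any 1 of the 4 libraries (1.79 to 2.88). *kcnq5b*, of the M-current family, rose in WT7 vs WT0 (1.93, SE 0.52, FDR = 0.0243), from 0.34 and 0.89 CPM to 2.14 and 2.56, which gave 1.39 without WT0 replicate 1, 2.05 without WT7 replicate 1 and 1.80 without WT7 replicate 2, with no call. Of 6 endothelial markers, 1 (*cdh5*, 169 and 20.2 CPM) differed by more than 2-fold between the WT0 libraries.

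*kcnj3* and *kcnj5*, the subunits of the acetylcholine-activated atrial channel in mammals, were sparse. *kcnj3* had 0 counts in WT0 and 50 in MT0, which is at least 11.7-fold more against a floor of 3 counts over the group (FDR = 0.0118), and 3 counts in WT7 against 127 in MT7, a ratio of 37.3 (interval 12.5 to 183, FDR = 0.0152). It was taken up after its values were seen. The first call was lost without MT0 replicate 2 (FDR = 0.058) or WT0 replicate 1 (FDR = 0.0618), and the second without MT7 replicate 1 or either WT7 library. *kcnj5* was not a DEG in any comparison, with 1 count in WT7 as against 42 in TG7 and 27 in MT7. The atrial markers (4 of 4 detected) summed to 6382 and 6106 CPM in WT0, 5657 and 6367 in TG0, 7308 and 8542 in MT0, 3490 and 3460 in WT7, 4980 and 5206 in TG7, as against 9813 and 4863 in MT7. The defining one, *myh6*, stood at 85.6 and 348 CPM in WT0, 438 and 864 in TG0, 632 and 1123 in MT0, 2.72 and 14.1 in WT7, 998 and 1045 in TG7, and 2595 and 1133 in MT7. Both WT7 libraries lay below all 4 TG7 and MT7 libraries in 3 of the 4 atrial markers. So they did in 9 of the 13 detected markers of neurons and glia, *syt1a*, *sncb*, *mpz* and *plp1b* being the exceptions. The pattern was not particular to these lists. Markers of other cell types had it too, among them *acta2*, *myh11a*, *elnb*, *tcf21*, *tbx18*, *pdgfra*, *fli1a*, *tie1* and *alas2*. Others did not, among them *tagln*, *col1a2* and *kdrl*. Values in WT7 were likewise below those of all TG7 and MT7 libraries for *kcnj3*, *kcnj5*, *cacna1ba*, *scn4ab* and *atp1a1a.3*. The same held for other members, among them *atp1a1a.1*, *atp1a2a*, *cacna2d1a*, *kcnk6* and *scn1ba*. The share of all genes with this pattern was not counted. The part of atrial muscle, of ectopic *myh6* expression or of nerve tissue in the samples was not tested.

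Both pacemaker genes were lower than in WT0 in TG0, MT0 and WT7. *hcn2b* measured 192 and 190 CPM in WT0, 87.4 and 125 in TG0, 93.2 and 133 in MT0, 126 and 112 in WT7, 73.5 and 74.5 in TG7, as against 79.9 and 58.2 in MT7. The WT0 libraries were the highest, and TG0 and MT0 overlapped. The log2FC was -0.85 (SE 0.22, FDR = 0.0206) in TG0, -0.76 (SE 0.22, FDR = 0.0278) in MT0 and -0.68 (SE 0.22, FDR = 0.0425) in WT7, and -0.79 (FDR = 0.0459) in MT7 vs WT7. The calls in TG0 and MT0 were lost without WT0 replicate 1 (-0.84 and -0.74), WT0 replicate 2 (-0.84 and -0.75) and TG0 replicate 1 (-0.60) or MT0 replicate 1 (-0.51), and those with WT7 without any 1 of their libraries (-0.59 to -0.77, and -0.56 to -1.02). *hcn4*, the main pacemaker channel of the vertebrate heart, measured 14.9 and 2.46 CPM in WT0, 0.18 and 0.40 in TG0, 1.13 and 1.30 in MT0, and 0.25 to 0.71 after injury. It was lower than in WT0 in TG0 (-4.84, SE 0.84, FDR = 0.00453), MT0 (-2.83, SE 0.73, FDR = 0.0182) and WT7 (-3.64, SE 0.76, FDR = 0.00852). Without WT0 replicate 1 the TG0 call was kept (-3.02, FDR = 0.0263) and the others were not (-1.0, FDR = 0.302, and -1.81, FDR = 0.0949). TG0 lost its call without TG0 replicate 1 (-4.40, FDR = 0.0537), MT0 without either MT0 library (-2.72 and -2.92) and WT7 without either WT7 library (-3.62 and -3.65).

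Against both controls, 15 members were DEGs in the same direction in MT0, of which 12 were not DEGs between TG0 and WT0. Of the 77 tested members 7 were higher and 8 lower, against 6.12% and 3.83% of all tested genes. The 15 were *atp1a2a*, *atp1b3a*, *cacna1ba*, *cacnb4b*, *kcne4*, *kcnk6* and *scn1ba*, all higher, and *atp1a3b*, *atp1b1b*, *cacna1ab*, *kcnab2b*, *kcng1*, *kcnj11*, *kcnn1a* and *scn3b*, all lower. Both comparisons share the MT0 libraries, so the agreement in direction is not independent. Of the 12, *atp1a3b*, *atp1b1b*, *kcne4* and *scn3b* kept the calls against both controls in every alternative. Among the other 3, *scn1ba* did so too.

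Genes whose products bind or regulate these channels and pumps were taken from a fixed list of 34, of which 23 were tested. In MT0 vs WT0, 7 were higher and 5 lower (13.6% and 11.6% of all genes), and in MT0 vs TG0, 6 and 5 (11.4% and 9.42%). In MT7 vs MT0, 0 rose and 9 fell (5.56% and 6.48% of all genes), whereas 1 rose and 6 fell in WT7 vs WT0 (13.2% and 11%) and 0 rose and 1 fell in TG7 vs TG0 (6.69% and 2.68%). *rem1*, a small GTPase that restrains L-type calcium channels, measured 360 and 365 CPM in WT0, 359 and 302 in TG0, and 101 and 50 in MT0. It was lower in MT0 than in WT0 (log2FC -2.27, SE 0.30, FDR = 0.000807) and TG0 (-2.13, SE 0.30, FDR = 0.00116), and lower in MT7 than in WT7 (-3.02, FDR = 0.000575) and TG7 (-2.54, FDR = 0.00337). *fxyd1*, phospholemman, the heart's regulator of the Na/K pump, measured 523 to 921 CPM in uninjured libraries and was a DEG in MT7 vs WT7 alone (-0.69, FDR = 0.0331). These list members were not refitted with libraries left out.

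Ranked by Pearson's r of log2 CPM over the 12 libraries, a description that shares groups and libraries between points, the closest members to *atp1a3b* were *scn3b* (r = 0.971) and, in the opposite direction, *atp1a2a* (r = -0.966). *scn3b* and *kcne4* gave -0.934. The closest pair of all was *scn4ba* and the second *scn12ab* row (r = 0.978). Both had their highest value in WT0 replicate 1 (116 and 39 CPM), and r without that library was not computed. *kcnk6* and *atp1b3a* gave 0.936.

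Several genes that carry cardiac currents in other vertebrates were too sparse to be members. Of 57 names on a fixed list of cardiac channel and pump genes, 25 were members. Some of the other names, among them *scn5lab* and *kcne1*, matched no symbol of the count lists, so the gap is not sparsity alone. *kcnh2a*, *kcnh2b*, *kcnd3*, *kcnk3a*, *kcnj2b*, *cacna1da*, *cacna1db*, *cacnb2b*, *scn4bb*, *hcn4l* and *atp1b2b* were listed but did not reach 10 counts in 2 libraries. Among members, the 25 that were never a DEG in the 9 comparisons included *atp1b3b*, a beta 3 gene at 26.7 to 58.7 CPM, *atp1b4*, *scn2b*, *scn1lab*, *kcnn4* and *kcnc4*. Other DEGs were *cacnb1*, *kcnip1b* and *kcnj6* in TG0 vs WT0 (log2FC -1.27, 1.64 and -3.28; without WT0 replicate 1 -0.65, 1.1 and -3.7), *cacng8b* in MT0 vs TG0 (-1.89), *kcnc1b* and *kcnk1a* in MT0 vs WT0 (1.53 and -1.74; 1.69 and -1.41 without WT0 replicate 1), *kcnc3a* in TG7 vs TG0 (3.56), and *cacna2d2* and *scn8ab* in MT7 vs WT7 (2.27 and -2.37). Each of these calls was lost without at least 2 of the libraries it compares. A miss at this depth with 2 libraries a group does not show that their levels were the same.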

How the data were processed

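RNA of pooled apices was sequenced by the authors in single-end mode at 100 bases. They used STAR (version 2.5.2) with GRCz10 and featureCounts (version 1.5.0-p3), and the deposited values are raw counts for each gene. The sources used here do not give the strand setting or multi-mapping rule. Members were taken by symbol. CPM and tests were computed in R (version 4.3.3) with edgeR (version 4.0.16). TMM factors were 0.855 to 1.296, and the default filter by group (minimum count 10, minimum total 15) left 19014 genes. A quasi-likelihood model with 6 group means was fitted to all 12 libraries, and p-values were adjusted by Benjamini-Hochberg (FDR) within each comparison. DEG thresholds follow the study's figure legends. SE is the absolute log2FC over the square root of F. A floor of 3 counts is 0.121 to 0.224 CPM per library. Replicates are separate pools. The step was tested on simulated data. RefSeq symbols (assembly GRCz12tu) served for names only. Alternatives were DESeq2 (version 1.42.0), RLE factors, no low-count filter, a replicate block, only the compared libraries, no fold threshold, and leaving out each library, where a lone library is assumed to vary like other groups. After the data were seen, WT0 replicate 1 was left out of every fit and a crossed block was added. Members, gene lists and tests were chosen with earlier results of these data known. Named genes were the cardiac-list members, the 2 members of each class with the highest mean CPM, in each comparison the 3 largest rises and falls among DEGs without overlap whose mean log2 CPM reached 0, and members called against both controls, in all 3 injury comparisons or in an interaction. Others named were chosen after their values were seen.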

Additional observations from a re-analysis of the deposited data

Results flagged for a closer look

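The response to injury of *atp1a1a.3* differed between MT and WT (edgeR interaction log2 fold change 5.929, FDR = 0.00991), with a rise in MT and a fall in WT. *kcnk5a* differed likewise (2.641, FDR = 0.0181), with a rise in MT and a fall in WT. In both, the interaction of MT with TG did not pass the test. The WT fall of *atp1a1a.3* was from 9 to 3 counts, and the gene also rose in TG (log2 fold change 3.451). It met the member rule through TG7 and MT7 libraries alone, so its tests are not independent of that rule. The interaction of MT with WT called 2.6% of tested members and 1.97% of all genes.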

How the results depend on the processing

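Of 148 member calls over the comparisons and interactions, 30 were kept in every alternative run. When only the compared libraries were fitted, the members called were 11 in MT0 vs WT0, 3 in TG0 vs WT0, 11 in WT7 vs WT0, 16 in TG7 vs TG0, 5 in MT7 vs MT0 and 14 in TG7 vs WT7. DESeq2 called 9 in MT7 vs TG7, 6 in the interaction of MT with WT and 1 in that of MT with TG, and 145 of 148 calls were kept. With each library left out in turn, members called ranged from 13 to 33 in MT0 vs WT0, 7 to 24 in MT0 vs TG0, 6 to 25 in TG0 vs WT0, 4 to 27 in WT7 vs WT0, 2 to 9 in TG7 vs TG0, 2 to 15 in MT7 vs MT0, 6 to 24 in MT7 vs WT7, 1 to 5 in MT7 vs TG7, 0 to 5 in TG7 vs WT7, and 0 to 9 in the interaction of MT with WT. A lone library in a group takes its spread from the others, and fewer samples are fitted. The share of all genes called in each alternative run was not counted. *scn4ba* in MT0 vs WT0 ran from -2.968 without WT0 replicate 2 to 0.09263 without WT0 replicate 1 (FDR = 0.878), where its direction reversed.

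Same-numbered replicates come from different pools, and the correlation of their deviations ran from -0.138 to 0.0736. With 2 libraries a group these values cannot decide whether same-numbered replicates shared a batch. The sources used here name no batch. With the replicate block the members called were 24 in MT0 vs WT0, 18 in MT0 vs TG0, 20 in TG0 vs WT0, 23, 7 and 7 in the injury comparisons of WT, TG and MT, 14, 4 and 5 in MT7 vs WT7, MT7 vs TG7 and TG7 vs WT7, and 3 and 0 in the interactions. A crossed pairing of MT0 and MT7, added after the data were seen, called 12 members in MT7 vs MT0. RLE factors kept 144 of 148 calls and no filter 136. The cause of these shifts was not tested. With 2 libraries a group and a floor of 3 counts, differences of genes below about 1 CPM are the least certain.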
